A study of Mus musculus with 21 samples.

Results

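Adenylyl cyclases are the enzymes that make cyclic AMP (cAMP) from ATP, and the 9 genes that encode the membrane-bound isoforms, Adcy1 to Adcy9, were selected by gene name from the 16318 genes of the deposited mouse brain table. All 9 were measured, and all 9 passed the filter on low counts that left 16303 genes for testing. The RNA came from the brains of 21 senescence accelerated SAMP8 mice, an inbred line that ages early and loses learning and memory ability, with 1 library per mouse. Of these mice, 12 were given phosphate-buffered saline (PBS; 6 females, 6 males) and 9 were given HsTX1[R14A] (3 females, 6 males), a peptide that blocks Kv1.3, a potassium channel gated by voltage. HsTX1[R14A] was injected subcutaneously at 1 mg/kg in PBS every other day for 8 weeks from 4 months of age, so that both groups carried the same SAMP8 background, vehicle and age, and no mice of a control strain are in the comparison.

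G protein-coupled receptors set the activity of these enzymes through the stimulatory subunit Gs alpha, or its olfactory and striatal relative Golf, and through the inhibitory Gi subunits. The cAMP that is made opens channels, activates protein kinase A and Epac, and so reaches the transcription factor CREB, a route that is known for its part in synaptic plasticity and memory. The isoforms differ in what else they respond to. Adcy1, Adcy3 and Adcy8 encode the isoforms that calcium and calmodulin stimulate, although Adcy3 responds only weakly and is best known from olfactory cilia and neuronal primary cilia. Adcy2, Adcy4 and Adcy7 encode isoforms that G beta-gamma subunits stimulate together with Gs alpha. Adcy5 and Adcy6 encode the isoforms that calcium inhibits, of which Adcy5 is the main one of the striatum, and Adcy9 encodes an isoform that responds little to the plant compound forskolin.

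In the GENCODE annotation of GRCm38 2 pairs of the 9 genes share a chromosome. Adcy5 (ENSMUSG00000022840, chr16:35154877-35305738, plus strand) and Adcy9 (ENSMUSG00000005580, chr16:4287529-4420498, minus strand) are both on chromosome 16, far apart. Adcy6 (ENSMUSG00000022994, chr15:98589973-98610076, minus strand) and Adcy8 (ENSMUSG00000022376, chr15:64697084-64922296, minus strand) are both on chromosome 15. The others are Adcy1 (ENSMUSG00000020431, chr11:7063489-7178506, plus strand), Adcy2 (ENSMUSG00000021536, chr13:68620043-68999541, minus strand), Adcy3 (ENSMUSG00000020654, chr12:4133103-4213525, plus strand), Adcy4 (ENSMUSG00000022220, chr14:55769057-55784095, minus strand) and Adcy7 (ENSMUSG00000031659, chr8:88272403-88329962, plus strand). Their longest annotated transcripts run from 4211 bases (Adcy2) to 12259 bases (Adcy1), all above the median of 3282 bases over the genes of the table. Among genes of the table, Cenpo, which encodes a centromere protein, lies across the end of Adcy3 on the other strand, and the counting is not stated to use strand.

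Promoter sequences from RefSeq (build GRCm38.p6) were found for 7 of the 9 genes, in 10 start site windows, and not for Adcy6 and Adcy8. The 250 bases before the start site are shown for the most abundant members (Adcy5 and Adcy1), for Adcy9, which had the largest difference by treatment, and for Adcy4, the least abundant member. Capitals mark the GC box GGGCGG and TGACG, the core of the cAMP response element, each on either strand.
Adcy5 promoter, chr16:35154614-35154863, plus strand: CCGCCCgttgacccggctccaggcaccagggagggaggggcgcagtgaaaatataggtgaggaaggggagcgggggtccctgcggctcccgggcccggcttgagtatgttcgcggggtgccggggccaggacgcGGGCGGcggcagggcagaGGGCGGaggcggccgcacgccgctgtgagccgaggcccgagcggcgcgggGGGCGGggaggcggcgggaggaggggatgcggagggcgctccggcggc
Adcy1 promoter, chr11:7063183-7063432, plus strand: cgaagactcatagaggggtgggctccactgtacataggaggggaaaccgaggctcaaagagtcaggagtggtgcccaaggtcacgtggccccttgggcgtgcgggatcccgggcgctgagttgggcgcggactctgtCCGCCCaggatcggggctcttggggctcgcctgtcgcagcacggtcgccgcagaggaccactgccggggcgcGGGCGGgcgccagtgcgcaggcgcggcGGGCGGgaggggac
Adcy9 promoter, chr16:4420499-4420748, minus strand: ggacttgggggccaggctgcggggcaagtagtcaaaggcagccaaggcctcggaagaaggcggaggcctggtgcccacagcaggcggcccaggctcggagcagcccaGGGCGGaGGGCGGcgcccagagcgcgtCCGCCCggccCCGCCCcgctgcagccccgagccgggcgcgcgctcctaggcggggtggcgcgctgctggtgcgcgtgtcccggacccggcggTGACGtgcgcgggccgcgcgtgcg
Adcy4 promoter, chr14:55784073-55784322, minus strand: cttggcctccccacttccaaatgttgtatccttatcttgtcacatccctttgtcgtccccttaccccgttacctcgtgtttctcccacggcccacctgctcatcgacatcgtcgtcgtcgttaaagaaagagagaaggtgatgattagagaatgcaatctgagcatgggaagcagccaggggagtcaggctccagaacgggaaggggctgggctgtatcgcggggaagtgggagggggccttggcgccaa
The GC box was found 4 times in the windows of Adcy5 and of Adcy9, 3 times in that of Adcy1, 2 times in that of Adcy2, and in 1 of the windows of Adcy3 and of Adcy7, against 32.7% of all 32851 promoter windows of the same length that hold it at least once. The windows richest in CpG dinucleotides were those of Adcy9 (34 CpG), Adcy5 (32), Adcy3 (27 in its first window), Adcy1 (26) and Adcy2 (23), while the Adcy4 window held 13, the Adcy7 windows 3 to 5, and the median window 6. Of all windows, 17.9% held at least 20 CpG. The full cAMP response element TGACGTCA was in none of the 10 windows (1.5% of all windows hold it), TGACG was in that of Adcy9 and in 1 of Adcy7 (17.8% of all), the TATA box TATAAA was in none (12.4% of all), and the E-box CACGTG was in that of Adcy1 (6.0% of all).

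Library totals ran from 14917174 to 36207554 counts in PBS mice and from 17552413 to 47613792 in HsTX1[R14A] mice. The libraries carried 2 forms of name, beginning with SAMP8 (10 PBS and 5 HsTX1[R14A] mice) or SAMP (2 and 4 mice), whose meaning is not given in the sources used here. They also differed in how steeply expression rose with transcript length, given here as the length slope, the slope of log2 CPM (counts per 1000000 counts of the library, scaled by the trimmed mean of M values, TMM) on log2 transcript length after each gene was centered on its mean. PBS libraries had a mean length slope of -0.0763 ± 0.161 (SD, n = 12; -0.384 to 0.147), and HsTX1[R14A] libraries one of 0.102 ± 0.119 (SD, n = 9; -0.142 to 0.234). The brains are labeled as whole, yet the cerebellar genes Gabra6 and Pcp2 had medians of only 0.127 and 0.0907 CPM in PBS mice and 0.548 and 0.397 CPM in HsTX1[R14A] mice, and stood at 90.1 and 38.9 CPM in a single HsTX1[R14A] male (mouse 74). The summed level of 9 striatal projection neuron markers was 903 to 1990 CPM in PBS mice and 484 to 2010 CPM in HsTX1[R14A] mice. In bulk tissue, fewer cells of a type and less RNA per cell cannot be told apart.

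The 9 isoforms spanned a wide range of abundance, with 3 isoforms far above the other 6. Per kilobase of longest transcript, Adcy5 had the highest level, at 40.6 ± 16.2 CPM per kilobase (SD, n = 21 mice), followed by Adcy1 at 32 ± 11.1 and Adcy2 at 26.9 ± 5.23. These 3 genes stood above 91.1%, 88.5% and 86.2% of all genes. Adcy3 came next at 6.06 ± 2.09 CPM per kilobase, then Adcy9 at 4.8 ± 1.97, Adcy6 at 3.58 ± 1.34 and Adcy8 at 2.77 ± 0.98. Adcy7 was at 1.12 ± 0.345 and Adcy4 at 0.315 ± 0.0989 CPM per kilobase, the latter above only 7.72% of genes and resting on 8 to 75 counts per library.

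**Figure D1:**
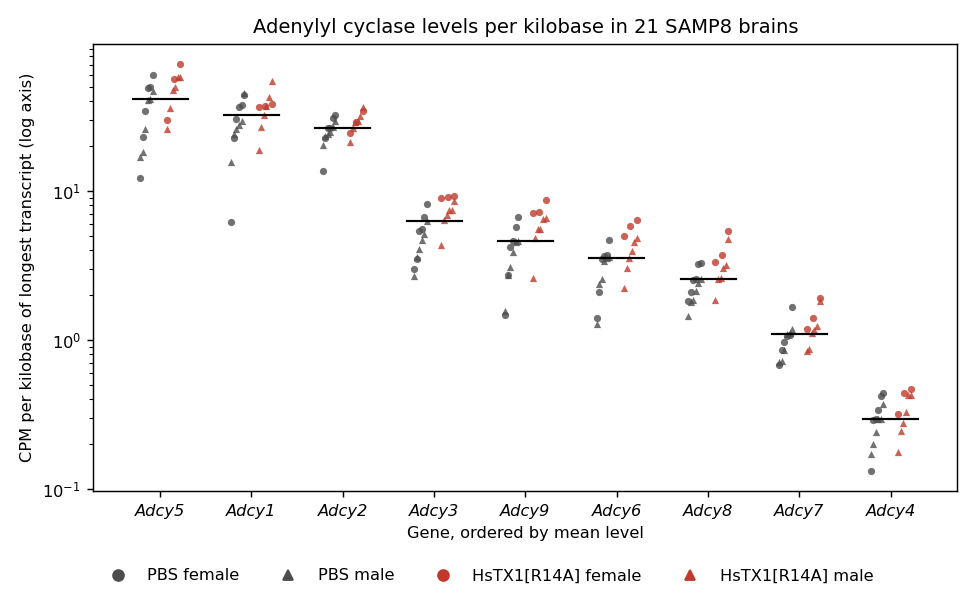
Level of each adenylyl cyclase in CPM per kilobase of longest transcript (log axis), with 1 point per mouse, colored by treatment and shaped by sex, and the median of the 21 mice as a line. Adcy5, Adcy1 and Adcy2 form an upper group, and the ranges of Adcy2 (13.6 to 36.7) and Adcy3 (2.71 to 9.30) do not overlap.

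The order at the top was not the same in every mouse. Adcy5 exceeded Adcy1 in 15 of 21 mice, Adcy1 exceeded Adcy2 in 16, and Adcy6 exceeded Adcy8 in 19. Every other neighboring pair kept its order within 21 of 21 mice. Between mice, the means of Adcy5 and Adcy1, Adcy1 and Adcy2, Adcy3 and Adcy9, Adcy9 and Adcy6, and Adcy6 and Adcy8 lay closer together than 1 SD of either gene, and only the ranges of Adcy2 and Adcy3, and of Adcy7 and Adcy4, did not overlap. The order also depends on the transcript chosen. With the median transcript length in place of the longest, Adcy6 (5.83 CPM per kilobase) moved above Adcy9 (5.29) and was the higher of the pair in 17 of 21 mice, and the levels of Adcy5 and Adcy1 became 77.0 and 47.3 CPM per kilobase. Of the summed level of the family, Adcy5 made up 32.5% ± 6.70 in the PBS group (SD, n = 12) and 34.9% ± 6.15 in the HsTX1[R14A] group (SD, n = 9). Adcy1 made up 27.2% ± 6.42 and 26.4% ± 5.09, and Adcy2 made up 25.4% ± 4.75 and 21.8% ± 2.99.

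Whether HsTX1[R14A] changed the amount of these mRNAs was the main comparison, fitted in edgeR with sex and treatment over all genes. Of the 9 isoforms, 4 were higher in HsTX1[R14A] mice at a false discovery rate (FDR) of at most 0.05, namely Adcy3, Adcy6, Adcy8 and Adcy9, and 0 were lower. Among all genes, 15.5% were called higher, 16.1% lower and 31.6% in either direction (10.3% higher and 23.1% lower under upper quartile scaling, where the same number of isoforms was called). All 9 isoforms had positive log2 fold changes, from 0.22 to 0.72 with a median of 0.51, against a median of -0.01 over all genes tested. For every isoform the values of the 2 groups overlapped.

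**Figure D2:**
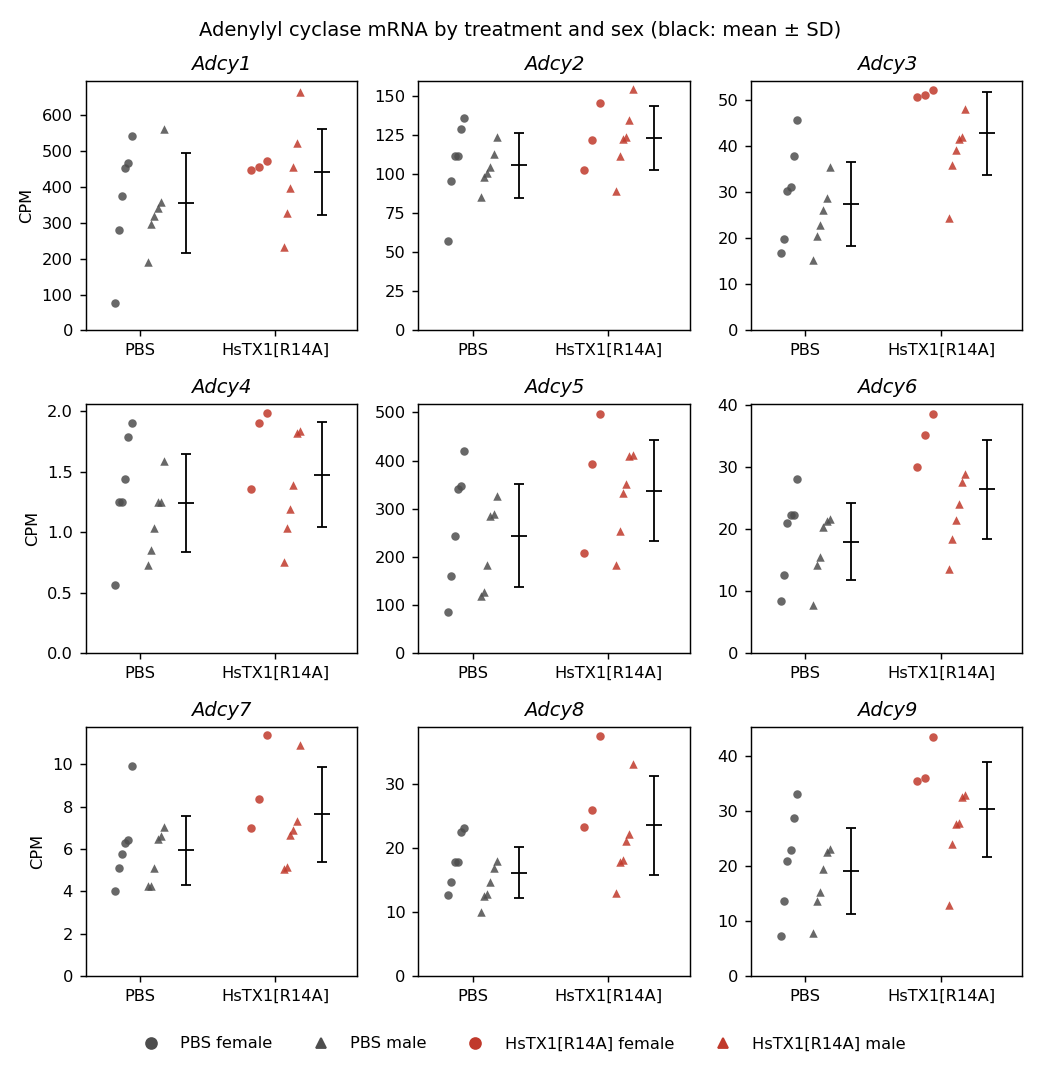
CPM of each adenylyl cyclase in 12 PBS and 9 HsTX1[R14A] mice, with 1 point per mouse (circles for females, triangles for males) and the mean ± SD of each treatment in black. The means of HsTX1[R14A] mice are the higher ones in all 9 panels, and the groups overlap in each.

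Among the isoforms that calcium and calmodulin stimulate, Adcy3 and Adcy8 were called higher and Adcy1 was not. Adcy3 had its lowest, median and highest values at 15.2, 27.5 and 45.7 CPM in PBS mice and at 24.4, 42.1 and 52.3 CPM in HsTX1[R14A] mice. All 3 HsTX1[R14A] females and 1 HsTX1[R14A] male (mouse 88) lay above the highest PBS mouse, and 8 of 9 HsTX1[R14A] mice lay above the PBS median. The log2 fold change of Adcy3 was 0.69 (SE 0.16, edgeR FDR 0.0161), a 1.61-fold difference. Adcy8 ran from 10.1 CPM through a median of 15.9 to 23.1 CPM in PBS mice and from 13 through 22.2 to 37.6 CPM in HsTX1[R14A] mice. Its highest values were those of HsTX1[R14A] female 71 and HsTX1[R14A] male 88 (33.2 CPM), and its log2 fold change was 0.61 (SE 0.15, edgeR FDR 0.0166). Adcy1, the isoform best known for long-term potentiation, spread most widely, from 75.6 through 350 to 562 CPM in PBS mice and from 233 through 455 to 666 CPM in HsTX1[R14A] mice. Its log2 fold change of 0.33 (SE 0.25, edgeR FDR 0.302) lay within the spread between mice. The highest Adcy1 value was that of mouse 74, the library with the highest sum of cerebellar markers (671 CPM). Without this mouse the edgeR FDR of Adcy1 was 0.482. PBS female 73, with the next highest sum (326 CPM), had an Adcy1 level of 279 CPM. Its length slope was also lower (-0.148, against 0.0884 in mouse 74). The part of cerebellar tissue in these values was not tested.

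Of the isoforms that G beta-gamma subunits stimulate, none was called, and all had positive values. Adcy2 lay at 57.1, 109 and 136 CPM (lowest, median and highest) in PBS mice and at 89.6, 123 and 155 CPM in HsTX1[R14A] mice. Its log2 fold change was 0.22 (SE 0.12, edgeR FDR 0.159), the smallest of the family, and it also had the smallest spread between mice, with a biological coefficient of variation of 20% against 23.9% to 39.4% for the other 8. Adcy7, which is also expressed in microglia and other immune cells, lay at 4.04, 6.03 and 9.94 CPM in PBS mice and at 5.06, 7.01 and 11.4 CPM in HsTX1[R14A] mice. With a log2 fold change of 0.39 (SE 0.16, edgeR FDR 0.063) it was just outside the threshold, while DESeq2 placed it inside (FDR 0.0457), where 19.4% of all genes were called higher. The microglial markers had a median log2 fold change of -0.21, with 2 of 6 called lower (16.1% of all genes) and 0 higher, and their part in the Adcy7 value was not tested. Adcy4 ran only from 0.568 to 1.90 CPM in PBS mice and from 0.759 to 1.99 CPM in HsTX1[R14A] mice, and its log2 fold change was 0.30 (SE 0.19, edgeR FDR 0.22).

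Of the calcium-inhibited isoforms, Adcy6 was called higher and the more abundant Adcy5 was not. Adcy6 lay at 7.75, 20.7 and 28.2 CPM in PBS mice and at 13.6, 27.6 and 38.7 CPM in HsTX1[R14A] mice. All 3 HsTX1[R14A] females (30, 35.3 and 38.7 CPM) and HsTX1[R14A] male 88 (29 CPM) exceeded the highest PBS mouse, and the other HsTX1[R14A] males lay within the PBS range. The log2 fold change was 0.59 (SE 0.20, edgeR FDR 0.0322), and this call was lost when any of 5 mice was left out (PBS male 90, HsTX1[R14A] females 98 and 71, HsTX1[R14A] males 88 and 81), with an FDR of up to 0.0654. Adcy5 lay at 86.4, 264 and 420 CPM in PBS mice and at 183, 351 and 497 CPM in HsTX1[R14A] mice. Its log2 fold change of 0.51 (SE 0.25, edgeR FDR 0.119) was close in size to that of Adcy6, and its spread was wider, with a biological coefficient of variation of 39.4% against 31.5%.

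Adcy9 had the largest difference of the family. Its lowest, median and highest values were 7.31, 20.1 and 33.1 CPM in PBS mice and 13, 32.5 and 43.4 CPM in HsTX1[R14A] mice, with 8 of 9 HsTX1[R14A] mice above the PBS median. The log2 fold change was 0.72 (SE 0.22, edgeR FDR 0.0248), and the call was narrowly lost without HsTX1[R14A] female 98, the mouse with the highest value, where the FDR was above the threshold but rounds to 0.05.

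The same mice stood at the ends of the range for most isoforms. HsTX1[R14A] male 93 had the lowest value of its group for 9 of 9 isoforms, and HsTX1[R14A] female 71 the highest for 5. In the PBS group, mouse 103 had the lowest value for 5 isoforms and mouse 90 for 3, while mouse 84 was the highest for 7 and among the 2 highest for all 9. Mice 103 and 90 had the lowest length slopes of the PBS group (-0.384 and -0.337) and mouse 84 the highest (0.147), and mouse 93 had the lowest of the HsTX1[R14A] group (-0.142). Without PBS mice 103 and 90, an alternative chosen after the data were seen, the same 4 isoforms were called (10.3% of all genes higher), with log2 fold changes of 0.58 (Adcy3), 0.45 (Adcy6), 0.54 (Adcy8) and 0.57 (Adcy9).

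The link to the length slope was measured within the PBS mice, where treatment plays no part. All 9 isoforms rose with the slope, by 0.16 (Adcy8) to 0.44 (Adcy1) on the log2 scale per 0.1 of slope, with edgeR FDR values of 1.24e-07 to 0.00858. Of all 16039 genes tested in PBS mice, 28.7% rose with the slope and 56.1% changed in either direction. The slope was computed from these same libraries, and all 9 isoforms have longest transcripts above the median of all genes. A rise with the slope is therefore partly built in, and these FDR values are not an independent test. Genes of similar length were not compared. Adcy9 (0.42) and Adcy5 (0.40) followed Adcy1 in size, then Adcy6 (0.36), Adcy3 (0.27) and Adcy4 (0.26), while Adcy2 (0.18) and Adcy7 (0.17) rose least besides Adcy8. Without mice 103 and 90, 6 of the 9 were still called (14.1% of all genes rose), and the 3 that were not were Adcy1 (0.26, FDR 0.056), Adcy2 (0.11, FDR 0.0983) and Adcy4 (0.19, FDR 0.268). In the 9 HsTX1[R14A] mice, all 9 isoforms again had positive values, from 0.18 to 0.41 per 0.1 of slope, and 5 were called (15.8% of all genes rose): Adcy3, Adcy4, Adcy6, Adcy8 and Adcy9.

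**Figure D3:**
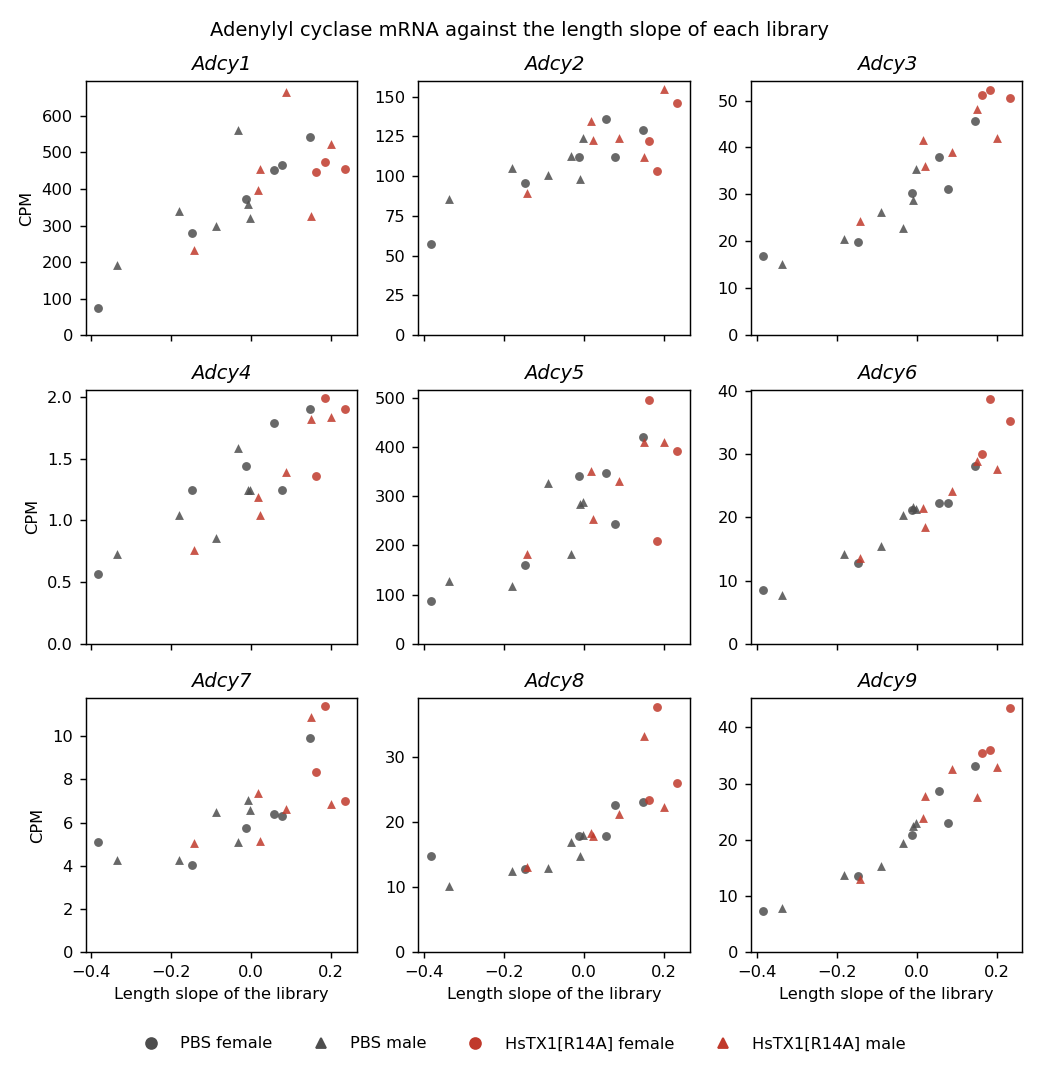
CPM of each adenylyl cyclase against the length slope of the library, with 1 point per mouse, colored by treatment and shaped by sex. In both treatments the points climb from left to right, and most HsTX1[R14A] libraries lie at higher slopes (up to 0.234) than the PBS libraries.

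Because the slope was higher in HsTX1[R14A] mice, its share in the differences by treatment and that of the peptide cannot be told apart in these samples. With the slope as a covariate, 0 of the 9 isoforms and 0 of the 16303 genes (0.0%) were called (edgeR; 1 isoform and 1865 genes at an unadjusted p under 0.05). The log2 fold changes were then 0.23 (Adcy8), 0.20 (Adcy3), 0.06 (Adcy7) and 0.01 (Adcy9), and they were negative for Adcy6 (-0.04), Adcy2 (-0.12), Adcy5 (-0.16), Adcy4 (-0.26) and Adcy1 (-0.37). Where the common trend on transcript length and GC content was removed from each library in place of the covariate, Adcy3 (0.37, FDR 0.0123), Adcy8 (0.32, FDR 0.0379) and Adcy9 (0.45, FDR 0.0308) were still called (9.42% of all genes higher) and Adcy6 was not (0.29, FDR 0.0608). With the form of the library name as a covariate, Adcy3 and Adcy8 were still called (FDR 0.039 each, 5.98% of all genes higher), and Adcy9 (FDR 0.0559) and Adcy6 (FDR 0.0645) were not. Within the 15 libraries of the SAMP8 form alone the log2 fold changes were 0.13 to 0.77, and within the 6 of the SAMP form 0.03 to 0.41, with 0 isoforms and 0.0% of all genes called by edgeR in either (5 and 1 isoforms at an unadjusted p under 0.05).

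**Figure D4:**
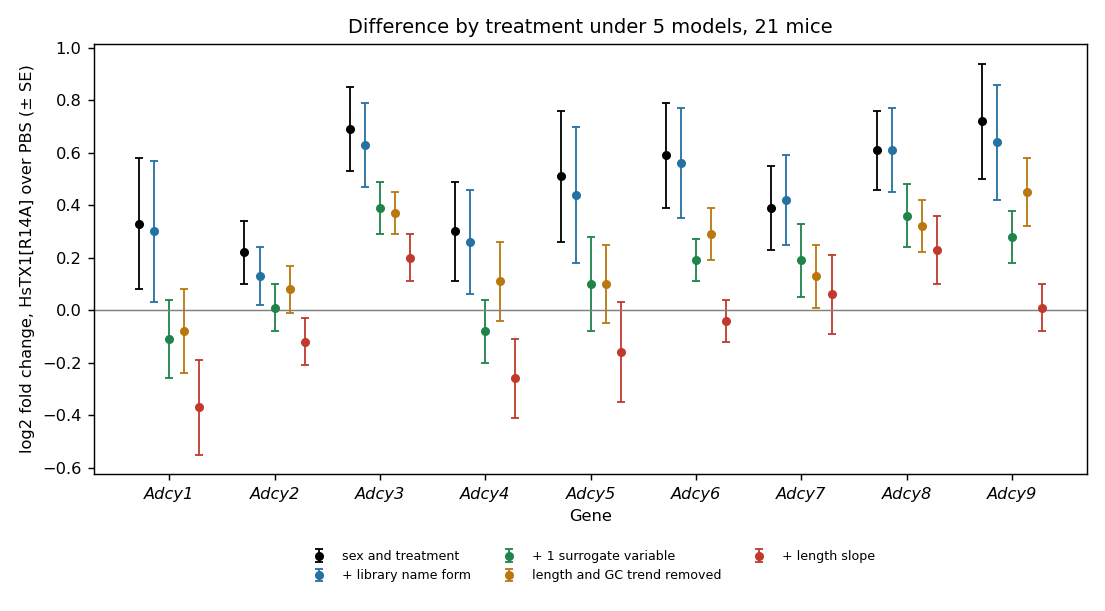
Log2 fold change (± SE) of HsTX1[R14A] over PBS for each adenylyl cyclase under 5 models. The value falls toward 0 or below it once the length slope is a covariate, and Adcy3 and Adcy8 keep the largest positive values there (0.20 and 0.23).

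Adcy5 stood apart from its relatives in its tie to striatal content, a comparison chosen after the data were seen. The level of 9 striatal projection neuron markers, which include the dopamine receptors Drd1 and Drd2 and the phosphatase inhibitor Ppp1r1b (DARPP-32), was entered as a covariate together with sex, treatment and length slope. Adcy5 rose by 0.65 on the log2 scale per doubling of the marker sum (SE 0.09, edgeR FDR 0.00023), and none of the other 8 isoforms was called, with values of -0.25 (Adcy8) to 0.14 (Adcy2). Among all genes 1.45% rose with the marker sum. Without the length slope in the model the value for Adcy5 was 0.56 (SE 0.26, edgeR FDR 0.76) and was not called (0.632% of all genes rose). Leaving out each mouse in turn gave 0.61 to 0.86 for Adcy5, called in 21 of 21 fits, and the highest of these was without HsTX1[R14A] female 71.

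Mouse 71 had the lowest marker sum of all (484 CPM) and an Adcy5 level of 209 CPM, although it had the highest values of its group for 5 other isoforms. Its Adcy2 level (103 CPM) was, like its Adcy5 level, among the 2 lowest of its group. PBS male 82 had the lowest marker sum of the PBS group (903 CPM) with an Adcy5 level of 183 CPM, while its Adcy1 level (562 CPM) was the highest of that group. As to treatment, 0 of the 9 striatal markers were called. With the striatal marker level as the only added covariate, the log2 fold change of Adcy5 was 0.55 (SE 0.23, edgeR FDR 0.0778) and the same 4 isoforms were called as without it (2288 of 16303 genes, or 14% of all genes, were higher).

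**Figure D5:**
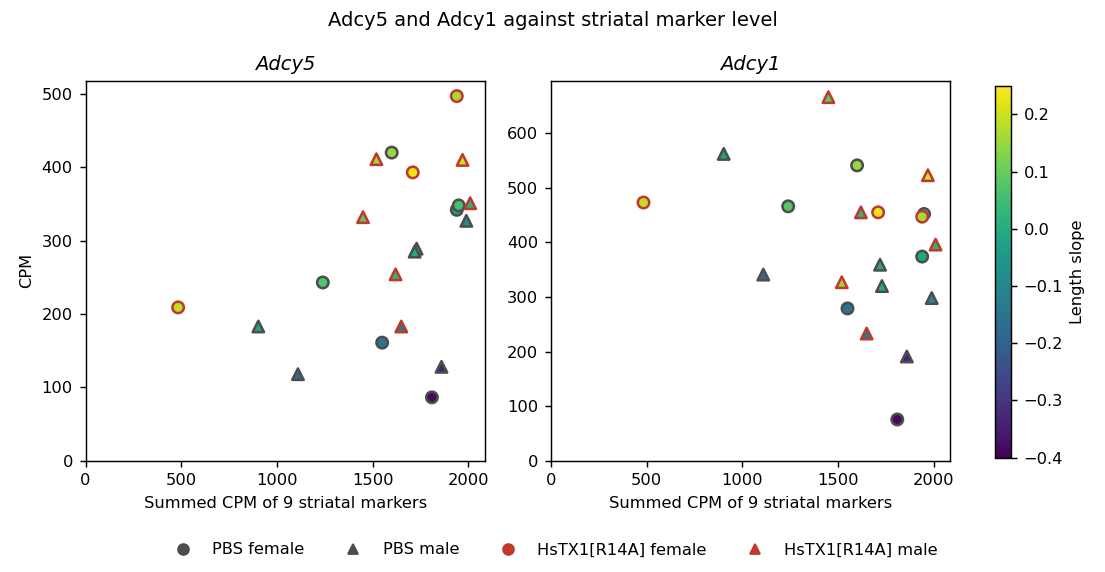
CPM of Adcy5 (left) and Adcy1 (right) against the summed CPM of 9 striatal projection neuron markers, with 1 point per mouse filled by length slope, outlined by treatment and shaped by sex. At similar length slopes Adcy5 is lower in the mice with low marker sums (209 CPM in mouse 71, 183 CPM in mouse 82), a pattern that the Adcy1 panel does not show.

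Genes that varied with each isoform across the 21 mice were listed after the means of the 4 groups of treatment and sex had been removed, as a description, since the values share libraries and length slopes. Adcy5 was most like Bcr (Pearson r = 0.969), Bcl11b, a transcription factor of striatal projection neurons (0.966), and the histamine receptor gene Hrh3 (0.965). With the length slope also removed, Bcr stayed first for Adcy5 (0.944), followed by Rxrg (0.923) and Rasd2, a GTPase gene known from the striatum (0.921). With the group means alone removed, Adcy3 was most like Usp22 (0.982), Adcy6 like Chd6 (0.981), Adcy9 like Tubgcp6 (0.980), Adcy2 like Extl1 (0.965), Adcy1 like Ppfia3 (0.959), Adcy4 like Mast4 (0.952), Adcy7 like Ache (0.933) and Adcy8 like Slc24a3 (0.932). Of these, only Mast4 stayed first (0.770) with the length slope also removed. The first genes were then Gorasp1 (Adcy3, 0.950), Tnfrsf1b (Adcy6, 0.814), Thap11 (Adcy9, 0.879) and Syndig1 (Adcy2, 0.915). For Adcy1, Adcy7 and Adcy8 they were Adrbk1 (0.904), Trp53bp1 (0.899) and Cib2 (0.874). Over the 36 pairs of isoforms r ran from 0.287 to 0.949 with a median of 0.771, and with the length slope removed it ran from -0.639 to 0.667 with a median of 0.108.

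Neither sex nor its interaction with treatment separated the isoforms. All 9 had lower values in males, with log2 differences (male minus female) of -0.41 (Adcy9) to -0.02 (Adcy2), and 0 were called by edgeR, by limma/voom or by DESeq2. In edgeR 1 isoform had an unadjusted p under 0.05, Adcy8 (-0.40, SE 0.15, edgeR FDR 0.446), and among all genes 0.0552% were called. The lower values in males did not hold with the length slope as a covariate. The differences by sex then ran from -0.23 to 0.39, positive for 4 isoforms and negative for 5, and 0 were called (0.0552% of all genes). The interaction of treatment and sex was called for 0 isoforms and 0 of the 16303 genes (0.0%; 0 isoforms and 1.66% of genes at an unadjusted p under 0.05). Its values ran from -0.43 (SE 0.41, Adcy6) to 0.09 (SE 0.53, Adcy5), so that with 3 HsTX1[R14A] females a difference between the sexes of the size of the treatment effects was not detectable. In females alone the log2 fold changes of the 4 called isoforms were 0.67 to 0.85, and in males alone 0.42 to 0.64, with 0 isoforms and 0.0% of all genes called by edgeR in either sex (4 and 3 isoforms at an unadjusted p under 0.05).

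Of the other genes of cAMP signaling, 116 of 119 listed were tested, and 30 were called higher and 8 lower in HsTX1[R14A] mice, with a median log2 fold change of 0.17 (-0.01 over all genes). The share called in either direction, 32.8%, was near the 31.6% of all genes, with 25.9% higher (15.5% of all genes) and 6.9% lower (16.1% of all genes). Among the G protein alpha subunits only Gnao1, an inhibitory subunit abundant in neurons, was called (0.38, SE 0.13, edgeR FDR 0.0343; 1 of 7, or 14.3%, lost when any of 9 mice was left out), while Gnas, which encodes Gs alpha, was at 0.01 (SE 0.06) and Gnal, which encodes Golf, at 0.21 (SE 0.12, edgeR FDR 0.163). Receptors that couple to Gs were called higher in 6 of 22 (27.3%, against 15.5% of all genes) and lower in 0, among them the adrenergic receptors Adrb1 (0.41, lost without PBS male 90, HsTX1[R14A] female 98 or HsTX1[R14A] male 81) and Adrb3 (0.53, at under 1 CPM) and the corticotropin-releasing hormone receptor Crhr1 (0.53, lost when any of 5 mice was left out). Receptors that couple to Gi were called higher in 8 of 23 (34.8%, against 15.5% of all genes) and lower in 0. Among the higher ones were the opioid receptor Oprm1 (1.08, PBS mean 1.28 CPM, HsTX1[R14A] mean 2.47 CPM) and the somatostatin receptor Sstr2 (0.39). The dopamine receptor Drd3 was also called higher (1.28), with both group means under 1 CPM. Adora1 and Adora2a, the most abundant of the listed Gi and Gs receptors, were both at 0.02. As with Gnas, their sign turned under upper quartile scaling.

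Downstream of the cyclases, 3 of 16 phosphodiesterases, which break cAMP down, were called higher (18.8%, against 15.5% of all genes) and 1 lower (6.25%, against 16.1%). Pde4d, a cAMP-specific phosphodiesterase, was higher in 9 of 9 HsTX1[R14A] mice than the PBS median (0.69, SE 0.13, edgeR FDR 0.0151), and Pde3b was lower (-0.17, a call lost when any of 8 mice was left out). The other higher calls, Pde11a (0.52, edgeR FDR 0.0449) and Pde2a (0.32, edgeR FDR 0.0488), were each lost when any of 13 mice was left out. Of the genes of protein kinase A, the regulatory subunits Prkar2a (0.36) and Prkar1b (0.35, a call lost in the same 3 cases as that of Adrb1) were higher and the inhibitor Pkia was lower (-0.44, lost when any of 9 mice was left out), 3 calls among 9 genes, a share (33.3%) near that of all genes in either direction (31.6%). Genes listed as A-kinase anchoring proteins, which hold the kinase near its targets, were called higher in 7 of 15 (46.7%, against 15.5% of all genes). They were called lower in 1 (6.67%, against 16.1%). Akap9 was at 0.63, Akap6 at 0.50 and Akap10 at 0.21. The 7 include Mapt (0.27, edgeR FDR 0.0441), which encodes the microtubule protein tau and is not an established anchoring protein. Rapgef4, which encodes the cAMP-activated exchange factor Epac2, had the largest fall of the listed cAMP genes, from 1010 ± 286 CPM (SD, n = 12) to 626 ± 159 CPM (SD, n = 9), with 0 of 9 HsTX1[R14A] mice above the PBS median (-0.77, SE 0.16, edgeR FDR 0.0151). In the same list of 12 effectors the CREB coactivators Ep300 (0.65) and Crebbp (0.45, lost without HsTX1[R14A] female 98 or male 81) were higher, and 2 genes in all were lower (16.7% in each direction, near the shares of all genes).

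Genes listed as regulators of the cyclases, some of which act only indirectly, were called lower in 3 of 12 and higher in 1. Together this was a share (33.3%) near that of all genes (31.6%). Snapin, which encodes a SNARE-associated protein that binds Adcy6, fell (-0.52, SE 0.11, edgeR FDR 0.0151), as did Calm2, which encodes calmodulin (-0.34, a call lost when any of 14 mice was left out), and Ppp2r5d was higher (0.23, lost when any of 5 mice was left out). The sign of Calm2 was thus opposite to that of Adcy3 and Adcy8, the called isoforms that calmodulin stimulates. Calm3, another calmodulin gene of the list, was not called (-0.06, SE 0.07, edgeR FDR 0.532). A link between the calmodulin genes and these isoforms was not tested. With the length slope as a covariate 0 of the 116 genes were called, and Crebbp was at -0.002 and Calm2 at 0.09 once the trend on length and GC content was removed.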

How the data were processed

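RNA from the brains of 21 SAMP8 mice was sequenced by the authors, 1 library per mouse. Reads were aligned to GRCm38 with STAR and quantified with Salmon, and the authors deposited estimated counts per gene, not normalized, in a table of 16318 genes. The filter that left these genes and the strand setting are not given in the sources used here, and the library kit named in the labels differs from that in the methods. The deposited fold change, p-value and FDR columns were not used, nor were 53 further per-sample columns (37 of CPM, 16 of counts). Of the estimated counts, 90.5% lay within 0.01 of a whole number, and they were rounded for the tests. No row without a gene name was found (0 rows).

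The 16303 genes that filterByExpr kept were normalized with TMM factors. The quasi-likelihood test of edgeR 4.0.16 (run in R 4.3.3; glmQLFit, glmQLFTest) compared treatments, with sex as a covariate, and Benjamini-Hochberg adjustment covered every gene tested (FDR threshold 0.05). A standard error is the size of the log2 fold change divided by the square root of F. Alternatives used limma 3.58.1, DESeq2 1.42.0, sva 3.50.0 (1 surrogate variable), other scalings and filters, other covariates, a loess trend on length and GC content (span 0.5), sexes or name forms alone, and each mouse left out. Library totals of 14917174 to 47613792 counts leave the spread between mice, not read sampling, as the limit for all members but Adcy4. In 48 pairs of mice of one group the mean chi-square per gene was 7.58 to 288 (genes with at least 20 counts in sum), so none differed by sampling noise alone. The fit was tested on simulated counts with known fold changes, drawn without a length trend between libraries. The simulation therefore cannot bear on calls that follow the length slope.

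Transcript lengths came from GENCODE for GRCm38 (16239 genes) and promoters from RefSeq (GRCm38.p6). The coexpression measure was limited to the 13302 genes whose log2 CPM averaged 1 or more (prior count 2). The genes named are the 9 members, in each cAMP list the 3 genes with the smallest p for treatment and the most abundant gene, and the genes with the highest coexpression values. Mapt and Calm3 are named in addition. The members, the gene lists and the marker lists were chosen with earlier results of these data known. The sources do not state the litter, cage or processing day of each mouse. The values of 1 gene of the cAMP lists are not reported here.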

Additional observations from a re-analysis of the deposited data

How the results depend on the processing

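The 4 calls among the 9 adenylyl cyclases were also made with DESeq2's size factors in edgeR (RLE scaling), upper quartile scaling, no filter beyond 1 count, limma/voom with or without sample quality weights, and the striatal marker level as a covariate, and with at least 10 counts in every mouse, where Adcy4 dropped out. DESeq2 added Adcy7 (0.40). Fewer isoforms were called with the library name form as covariate (2; Adcy6 0.56 and Adcy9 0.64 lost), with 1 surrogate variable (1; Adcy6 0.19, Adcy8 0.36 and Adcy9 0.28 lost, Adcy1 -0.11 and Adcy4 -0.08 negative), without the sex term (Adcy6 0.56 lost) and with the trend on length and GC content removed (Adcy6 0.29 lost, Adcy1 -0.08). With the length slope as covariate 0 were called (Adcy1 -0.37, Adcy2 -0.12, Adcy4 -0.26, Adcy5 -0.16 and Adcy6 -0.04 negative; Adcy3 0.20, Adcy8 0.23 and Adcy9 0.01 lost), as with the striatal marker level added to it (Adcy1 -0.36, Adcy2 -0.12, Adcy4 -0.27, Adcy5 -0.14, Adcy6 -0.05; Adcy3 0.21, Adcy8 0.22, Adcy9 0.01). In subsets, which hold fewer mice, 0 were called: SAMP8 name form alone (Adcy3 0.77, Adcy6 0.66, Adcy8 0.74, Adcy9 0.73), SAMP form alone (0.27, 0.31, 0.28 and 0.41), females alone (0.76, 0.85, 0.67 and 0.85) and males alone (0.64, 0.42, 0.57 and 0.64).

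Leaving out each mouse in turn gave 2 to 5 called isoforms, with log2 fold changes of 0.24 to 0.45 (Adcy1), 0.17 to 0.27 (Adcy2), 0.63 to 0.76 (Adcy3), 0.23 to 0.37 (Adcy4), 0.42 to 0.60 (Adcy5), 0.52 to 0.66 (Adcy6), 0.30 to 0.46 (Adcy7), 0.50 to 0.67 (Adcy8) and 0.65 to 0.81 (Adcy9). The count was lowest, 2, without HsTX1[R14A] female 98, and Adcy7 was gained without PBS mice 84 or 83 or HsTX1[R14A] mice 93 or 92 (FDR from 0.0245). In the PBS mice, the link of Adcy4 to the length slope was not called without mouse 103 (FDR 0.0621). The calls by sex and by interaction stayed at 0 in all settings run. By median transcript length the levels became 47.3 (Adcy1), 0.63 (Adcy4), 77.0 (Adcy5) and 5.83 (Adcy6) CPM per kilobase.

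Calls among the cAMP genes, 38 of 116 in the model with sex and treatment (31.6% of all genes), fell along with those over all genes, to 19 without the sex term (18.3% of all genes), 19 without PBS mice 103 and 90 (17.7%), 18 with the trend removed (16%), 12 with the name form (12.3%), 7 with 1 surrogate variable (6.77%), and 0 with the length slope (alone or with the striatal level), in each name form and in each sex. Leaving out each mouse gave 18 to 49. Named cAMP genes near 0 changed sign: Adora1 (0.02) was -0.18 with 1 surrogate variable, -0.09 in females, -0.26 with the length slope (with or without the striatal level), -0.04 with the name form, -0.07 with quality weights, -0.12 in the SAMP8 form, -0.23 with the trend removed, -0.06 with upper quartile scaling and -0.05 without PBS mice 103 and 90. Adora2a (0.02) was -0.31 in females, -0.06 with the name form, limma/voom or upper quartile scaling, -0.02 in the SAMP form, -0.08 in the SAMP8 form and -0.14 with the trend removed. Gnas (0.01) was -0.0007 with limma/voom, -0.02 with quality weights, -0.004 in males, -0.09 in the SAMP form, -0.01 with the striatal level, -0.26 with the trend removed and -0.07 with upper quartile scaling. Map2 (0.04) was -0.02 with 1 surrogate variable, -0.06 with the length slope, -0.15 with the trend removed and -0.03 with upper quartile scaling. With the trend removed Calm2 was 0.09, Crebbp -0.002 and Gnaz -0.01; in the SAMP form Pde11a was -0.13; and Ppp1r1b was 0.05 in males. With a mouse left out, Adora1 ran from -0.06 to 0.06, Adora2a from -0.07 to 0.19, Gnas from -0.05 to 0.03 and Ppp1r1b from -0.19 to 0.04. The causes were not tested.

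No paired analysis was possible because the groups compared share no mouse numbers. Of 36 groups of 4 to 10 mice tested for a value standing apart, 0 had one. With 3 HsTX1[R14A] females the sex-specific differences are the least precise, and Adcy4, at 8 to 75 counts per library, is the least precise member.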

Other observations

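Calls among markers of other cell types stand beside 16.1% of all genes called lower and 15.5% called higher between the treatments. Oligodendrocyte markers were called lower in 3 of 6 and higher in 0 (summed level 4280 to 6610 CPM in PBS mice and 3240 to 4780 CPM in HsTX1[R14A] mice), and astrocyte, microglial and ependymal markers were called lower in 2 of 6 each and higher in 0. Of the 8 neuron markers 1 was higher (12.5%) and of the 6 endothelial markers 1 was higher (16.7%), both shares near that of all genes, with 0 lower in both. Striatal, cerebellar, choroid plexus and erythrocyte markers had 0 calls in either direction. Summed microglial markers ran from 334 to 484 CPM in PBS mice and from 280 to 420 CPM in HsTX1[R14A] mice, and summed neuron markers from 4420 to 7020 and from 5110 to 8030 CPM. Summed astrocyte markers were not lower, at 2060 to 4070 CPM in PBS mice (median 3420) and 2400 to 4180 CPM in HsTX1[R14A] mice (median 3590). The part of these markers in the adenylyl cyclase values was not tested, apart from the striatal list.

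The summed level of the 9 isoforms was 104 ± 33 CPM per kilobase (SD, n = 12; 41.0 to 160) in PBS mice and 137 ± 26.8 (SD, n = 9; 78.5 to 163) in HsTX1[R14A] mice. Within the family, Adcy3 made up 4.8% ± 0.921 in PBS mice and 5.62% ± 0.882 in HsTX1[R14A] mice, and Adcy9 made up 3.58% ± 0.524 and 4.41% ± 0.834, with overlapping ranges. Adcy8 made up 5.12% of the family in PBS mouse 103, the library with the lowest length slope, against a group mean of 2.39% ± 0.901.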
